A study of Homo sapiens with 6 samples.

Results

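Described here are 9 MAP kinase dual-specificity phosphatase genes, taken by their symbols from the 58884 genes in the deposited table: DUSP5, DUSP6 and DUSP7 (ERK-selective), DUSP8, DUSP10 and DUSP16 (JNK/p38-selective), and DUSP1, DUSP2 and DUSP4 (nuclear enzymes with a broader range). A further ERK-selective gene, DUSP9 on the X chromosome, is not among them and had 0 counts in all 6 libraries. All 9 passed the expression filter and were among the 16859 genes tested. They were measured in HL-60, an established acute myeloid leukemia line whose labels describe it as RAS-mutated, and whose cells resemble promyelocytes. The 2 groups are cells with a stable lentiviral short hairpin RNA (shRNA) against EZH2 (3 libraries, numbered 1, 3 and 4) and cells with a scrambled control shRNA (3 libraries, numbered 3, 4 and 5). All cells carried a vector, had been selected with puromycin that was removed 2 days before the experiment, and were kept for 24 hours in 0.05% serum. Whether each library stands for its own transduction or culture is not stated in the labels. The p-values therefore reflect how much these 3 libraries per group varied, and that variation may be technical.

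MAP kinases are switched on when an upstream kinase phosphorylates a threonine and a tyrosine in their activation loop, and dual-specificity phosphatases switch them off by removing both phosphates. The family divides by substrate and place in the cell. DUSP6 and DUSP7 are cytoplasmic and DUSP5 is nuclear, and all of these prefer ERK. DUSP8, DUSP10 and DUSP16 act mainly on the stress-activated kinases JNK and p38. Several members are themselves transcribed in response to MAP kinase signalling, which makes them feedback regulators of the pathway that RAS feeds. EZH2 is the histone methyltransferase of Polycomb repressive complex PRC2. The comparison asks how the mRNA levels of these brakes differ between cells with less EZH2 and control cells. It also asks whether the ERK-selective and the JNK/p38-selective genes differ. Only RNA was measured here, not protein, phosphatase activity or MAP kinase phosphorylation.

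Total counts lay between 39717343 and 85074624 per library. EZH2 itself was at 148 to 151 CPM (each count divided by a TMM-adjusted library total) in the control libraries and at 77.3 to 83.2 CPM in the EZH2 shRNA libraries. The promyelocyte marker MPO averaged 9795 CPM in control and 9416 CPM in EZH2 shRNA cells, without passing the test (log2 fold change -0.06). Among the other markers of that stage, PRTN3 rose from 21.8 to 96.5 CPM (2.14) and AZU1 from 37.8 to 60.8 CPM (0.69), CTSG fell from 174.5 to 149.5 CPM (-0.22), and ELANE, at 0.0349 and 0.145 CPM, was below the filter. Markers of T, B and erythroid cells summed to at most 0.261, 0.978 and 0.0236 CPM in any library. Epithelial and fibroblast markers summed to 0.848 to 1.57 CPM in control and 2.501 to 3.31 CPM in EZH2 shRNA libraries, most of it KRT8. The part of these marker changes in the results was not tested. No 2 libraries of a group agreed within sampling noise (chi-square per degree of freedom 3.10 to 17.3), and each was counted as a sample. Such differences do not show whether the libraries came from separate cultures.

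The phosphatase genes did not move as a block. DUSP1, DUSP2, DUSP5, DUSP6 and DUSP10 rose, DUSP4, DUSP8 and DUSP16 fell, and DUSP7 did not pass the test. The rise of DUSP6 was marginal and its call ended in 13 of 18 alternative analyses. With DUSP6 counted, that made 8 of 9 members called, in a comparison where 46.7% of all tested genes were called. The 5 rises compare with 23.8% of all genes called higher and the 3 falls with 22.9% called lower. Changes ranged from a fall to 28.8% of the control level (DUSP8) to a rise to 239% (DUSP1), and both extremes belong to the least expressed members. The groups did not overlap for 8 of the 9 members, against 54.9% of all tested genes. The median log2 fold change (EZH2 shRNA over control) of the 9 members was 0.11 and that of all tested genes 0.01. In bulk RNA, fewer cells that express a gene and less of its RNA per cell cannot be told apart.

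**Figure D1:**
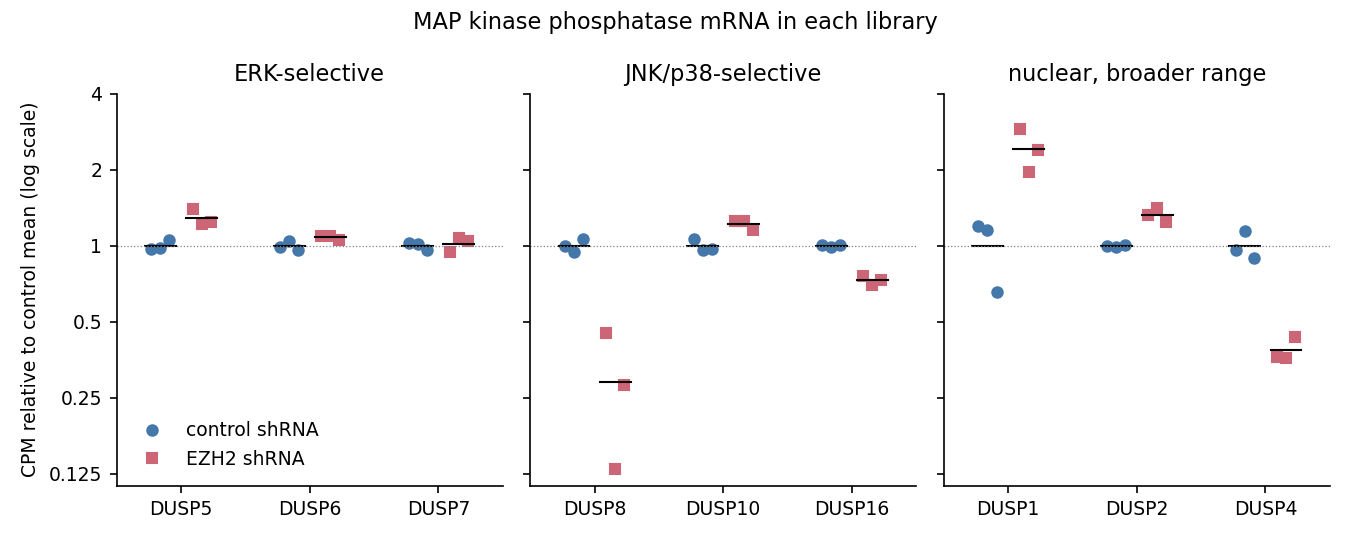
CPM of each phosphatase gene in each of the 6 libraries, divided by the mean of the 3 control libraries, on a log axis. Circles are control shRNA libraries, squares EZH2 shRNA libraries and bars the group means; the 2 groups are apart for every gene but DUSP7, and DUSP8 and DUSP1 show the widest spread among libraries.

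The members DUSP1 (largest rise), DUSP2 (rising member of highest level among the nuclear enzymes) and DUSP8 (largest fall) were chosen with their changes known. The stretches of DNA before their start sites are shown. Each is the 250 bases upstream of the RefSeq start site (GRCh38.p14), given 5′ to 3′ on the strand of the gene, which is the minus strand for all of them. DUSP1 is at chr5:172771196-172771445, DUSP2 at chr2:96145441-96145690 and DUSP8 at chr11:1572272-1572521. Capitals mark the cAMP response element TGACGTCA, the shorter TGACG on either strand, which lies within it,, and the E-box CACGTG.
DUSP1: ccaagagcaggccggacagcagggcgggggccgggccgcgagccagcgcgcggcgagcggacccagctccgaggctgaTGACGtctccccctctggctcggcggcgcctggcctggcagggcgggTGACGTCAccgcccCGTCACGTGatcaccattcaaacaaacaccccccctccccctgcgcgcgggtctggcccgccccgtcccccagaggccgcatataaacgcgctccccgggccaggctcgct
DUSP2: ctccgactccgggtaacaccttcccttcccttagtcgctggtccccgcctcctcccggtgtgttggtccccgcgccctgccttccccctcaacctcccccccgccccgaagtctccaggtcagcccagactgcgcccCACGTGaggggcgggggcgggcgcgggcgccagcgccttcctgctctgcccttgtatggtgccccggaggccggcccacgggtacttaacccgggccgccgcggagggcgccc
DUSP8: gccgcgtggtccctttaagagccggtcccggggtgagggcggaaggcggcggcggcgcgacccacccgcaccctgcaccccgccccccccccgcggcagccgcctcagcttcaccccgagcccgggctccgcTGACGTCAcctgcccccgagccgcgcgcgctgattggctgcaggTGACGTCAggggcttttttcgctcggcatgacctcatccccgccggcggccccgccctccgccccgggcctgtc

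The full element TGACGTCA, to which factors of the CREB and ATF family bind, was found 1 time before DUSP1 (its last base at -118 from the start site) and 2 times before DUSP8 (last bases at -111 and -67). It stood in 1.65% of 35116 promoter windows of the same length, searched on both strands. This element was present upstream of the gene that rose most and of the gene that fell most. DUSP2 had no TGACG, which was found in 21.2% of windows, but like DUSP1 it had 1 CACGTG, which 6.34% of windows hold. DUSP8 had no CACGTG. Each of these elements holds a CpG, and the shares are over all windows, whether rich in CpG or not. Shares among windows as rich in CpG as those of DUSP1, DUSP2 and DUSP8 were not computed. Of the 9 members, 7 were searched, with 8 start sites, since DUSP10 has 2. DUSP4 and DUSP5 were not searched, so whether they hold these elements is not known here. No TGACGTCA was found in the windows of DUSP6, DUSP7, DUSP10 or DUSP16. All windows but 1 were rich in CpG, with an observed over expected ratio of 0.759 to 0.942 against a median of 0.558 over all windows, and the internal start site of DUSP10 was at 0.21. Matches describe these letters only. Binding was not measured, and the part of these elements in the changes was not tested.

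Among the ERK-selective enzymes the rises were small. DUSP5, the nuclear ERK phosphatase (ENSG00000138166; GRCh38 chromosome 10, 110497907 to 110511533, plus strand), was at 6.88, 6.93 and 7.42 CPM in control libraries 3, 4 and 5 and at 9.88, 8.64 and 8.76 CPM in EZH2 libraries 1, 3 and 4. Every EZH2 shRNA library lay above every control library. The level rose to 128% of control, with a log2 fold change of 0.36 and SE of 0.09 (adjusted p = 0.00343 in edgeR). The exact two-sided permutation p was 0.1, which is the smallest that 3 against 3 libraries can give, and it was the same for each member whose groups did not overlap. A related pseudogene, DUSP5P1 on chromosome 1, held 179 counts in all control and 101 in all EZH2 shRNA libraries, beside 948 and 1699 counts for DUSP5.

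DUSP6, the main cytoplasmic ERK phosphatase and the most abundant member per length (ENSG00000139318; chromosome 12, 89347235 to 89352501, minus strand), had 105.8, 111.5 and 103.0 CPM in control libraries and 116.5, 116.3 and 112.6 CPM in EZH2 shRNA libraries. The lowest EZH2 shRNA library stood just above the highest control library. The log2 fold change of 0.11 (SE 0.04, edgeR adjusted p = 0.0426) passed narrowly, and 13 of 18 alternative analyses ended the call. Among these, adjusted p was 0.139 without control library 3, 0.196 without control library 5, and 0.0897, 0.131 and 0.0654 without EZH2 library 1, 3 or 4. With the number in the title as a replicate block, where the difference rests on libraries 3 and 4 of each group, it was 0.195 (log2 fold change 0.07). With DESeq2 it was 0.0842.

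DUSP7, the close cytoplasmic relative of DUSP6 (ENSG00000164086; chromosome 3, 52048919 to 52056571, minus strand), had 57.4, 57.0 and 53.8 CPM in control libraries and 53.2, 59.9 and 58.5 CPM in EZH2 shRNA libraries. The groups overlapped, with EZH2 library 1 below all controls and the other two above them. The log2 fold change of 0.03 (SE 0.05, edgeR adjusted p = 0.676) had a 95% interval of -0.08 to 0.14, so a change of the size seen for DUSP5 lies outside the interval.

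The JNK/p38-selective enzymes went in opposite directions. DUSP10, which acts on p38 and JNK in nucleus and cytoplasm (ENSG00000143507; chromosome 1, 221701424 to 221742089, minus strand), had 17.5, 15.8 and 15.9 CPM in control libraries and 20.5, 20.5 and 18.9 CPM in EZH2 shRNA libraries. All EZH2 shRNA libraries were above the controls, and the rise was 0.28 on the log2 scale with an SE of 0.07 (edgeR adjusted p = 0.00249). DUSP16, a JNK phosphatase that shuttles between nucleus and cytoplasm (ENSG00000111266; chromosome 12, 12474210 to 12562383, minus strand), had 20.7, 20.4 and 20.6 CPM in control libraries and 15.6, 14.4 and 14.97 CPM in EZH2 shRNA libraries. Here all EZH2 shRNA libraries were below the controls, at 73.0% of the control level (log2 fold change -0.45, SE 0.06, edgeR adjusted p = 1.58e-05). The ratio of DUSP10 to DUSP16, in FPKM (reads scaled to gene length and library size), was 1.71, 1.57 and 1.57 in control libraries and 2.65, 2.89 and 2.55 in EZH2 shRNA libraries. The ratio between the mRNAs of these enzymes of the same substrate class thus shifted from 1.62 ± 0.08 to 2.70 ± 0.17 (SD, n = 3 each).

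DUSP8 (ENSG00000184545; chromosome 11, 1554051 to 1572271, minus strand), known mainly from brain and heart, was close to silent in both groups. The control libraries held 28, 35 and 32 reads of it and the EZH2 shRNA libraries 16, 5 and 17, or 0.71, 0.67 and 0.75 CPM against 0.32, 0.09 and 0.20 CPM. The groups did not overlap, and EZH2 library 3 was the lowest. Its log2 fold change of -1.80 had an SE of 0.37 (edgeR adjusted p = 0.00073). The pooled counts, 95 against 38, gave a ratio of 0.285 with a 95% Clopper-Pearson interval of 0.19 to 0.419 that covers counting error only. The exact Poisson interval of the 5 counts in EZH2 library 3 was 1.62 to 11.7 counts. The pseudogene DUSP8P5 on chromosome 10 held more reads than DUSP8 (396 counts over the control and 486 over the EZH2 shRNA libraries; log2 fold change -0.25, edgeR adjusted p = 0.305), and whether reads were shared between the copies was not tested.

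The nuclear enzymes of broader range held the largest rise and the second largest fall of the family. DUSP1, an immediate early gene whose product acts on p38, JNK and ERK (ENSG00000120129; chromosome 5, 172768096 to 172771195, minus strand), had 22, 28 and 13 counts in control libraries and 67, 49 and 95 counts in EZH2 shRNA libraries. In CPM these were 0.56, 0.54 and 0.31 against 1.35, 0.91 and 1.12, so the gene was near the bottom of the family in both groups. All EZH2 shRNA libraries were above the controls, among which control library 5 was low. On the log2 scale the rise was 1.26 with an SE of 0.28 (edgeR adjusted p = 0.0012), and the pooled counts gave a ratio of 2.385 (95% Clopper-Pearson interval 1.79 to 3.21, counting error only). With the title number as a replicate block, where the difference rests on libraries 3 and 4 of each group, the rise was 0.90 (edgeR adjusted p = 0.021).

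DUSP2, an inducible phosphatase of blood cells that acts on ERK and p38 (ENSG00000158050; chromosome 2, 96143169 to 96145440, minus strand), was the second most abundant member per length. It had 26.5, 26.3 and 26.8 CPM in control libraries and 34.9, 37.2 and 32.9 CPM in EZH2 shRNA libraries. The control libraries lay close together, below every EZH2 shRNA library, and the rise was 0.40 on the log2 scale with an SE of 0.06 (edgeR adjusted p = 1.94e-05). DUSP4, which acts on ERK, JNK and p38 (ENSG00000120875; chromosome 8, 29333064 to 29350684, minus strand), went the other way. It had 7.795, 9.23 and 7.19 CPM in control libraries and 2.93, 2.89 and 3.52 CPM in EZH2 shRNA libraries. The highest EZH2 shRNA library was below the lowest control, and the level fell to 38.8% of control (log2 fold change -1.36, SE 0.12, edgeR adjusted p = 1.25e-07). In FPKM, DUSP2 exceeded DUSP4 by 12.8, 10.8 and 14.0 times in control libraries and by 44.9, 48.5 and 35.2 times in EZH2 shRNA libraries.

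**Figure D2:**
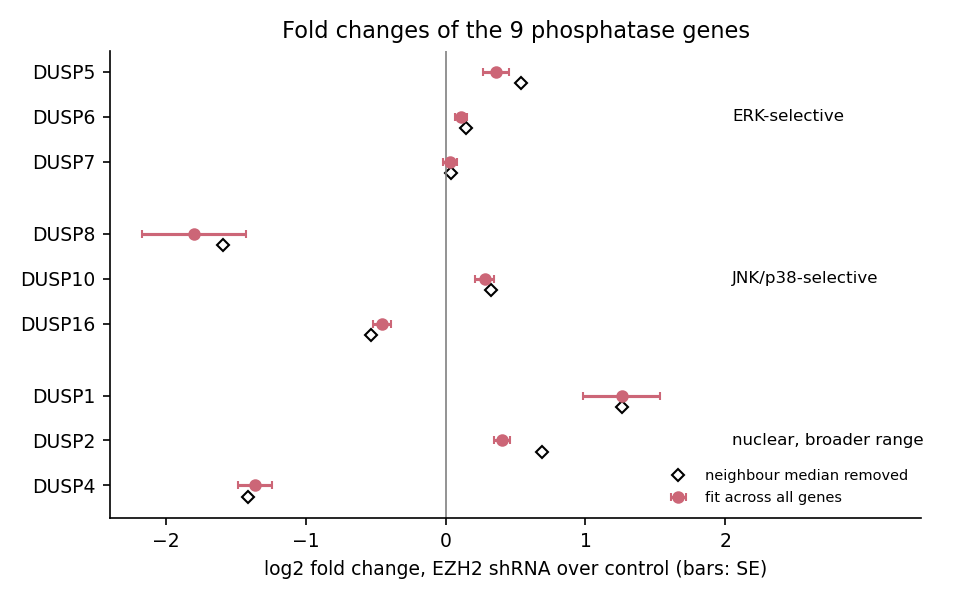
Log2 fold change of each gene, EZH2 shRNA over control, with SE bars (filled circles), and the same fit after the median log2 fold change of neighbouring genes was removed (open diamonds). The ERK-selective genes lie between 0.03 and 0.36, whereas both other classes hold genes on either side of 0; removing the neighbours' median moves DUSP2 furthest upward.

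Whether the ERK-selective and the JNK/p38-selective class differed depended on how the genes were weighted. The median log2 fold change was 0.11 for the ERK-selective and -0.45 for the JNK/p38-selective enzymes, a difference of 0.56. With 3 genes per class, these medians are the values of DUSP6, whose call was marginal, and of DUSP16. The ERK-selective genes ranged from 0.03 to 0.36 and the JNK/p38-selective genes from -1.80 to 0.28, so the classes overlapped. In mean log2 CPM, where each gene counts equally, the ERK-selective class exceeded the other by 2.43, 2.53 and 2.44 in control libraries and by 3.02, 3.54 and 3.25 in EZH2 shRNA libraries. Gene length is not divided out of these CPM differences, so only their change between groups is read. It was a widening by 0.80, but without the nearly silent DUSP8 it went from 0.92 ± 0.05 to 1.18 ± 0.03 (SD, n = 3 each), a widening by 0.25. In both forms the groups did not overlap.

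By summed level, where abundant genes count most, the picture was different. The ERK-selective enzymes together had 40.3, 41.6 and 39.0 FPKM in control libraries and 43.0, 43.9 and 42.6 FPKM in EZH2 shRNA libraries, which do not overlap. The JNK/p38-selective enzymes together had 9.94, 9.27 and 9.35 FPKM in control libraries and 9.94, 9.75 and 9.26 FPKM in EZH2 shRNA libraries, which do. Within that sum the mean of DUSP10 went from 5.79 to 7.01 FPKM and that of DUSP16 from 3.58 to 2.601 FPKM. The ratio of the ERK-selective to the JNK/p38-selective sum was 4.23 ± 0.23 in control and 4.48 ± 0.14 in EZH2 shRNA libraries (SD, n = 3 each), and the ranges overlapped. The sum of the nuclear enzymes of broader range was 15.1 ± 0.09 FPKM in control and 19.0 ± 1.05 FPKM in EZH2 shRNA libraries (SD, n = 3 each), without overlap. DUSP2 went from 13.7 to 18.0 FPKM and DUSP4 from 1.11 to 0.425 FPKM within it. Their share of the family total went from 23.2% to 26.4%, while that of the ERK-selective class went from 62.1% to 60.1% and that of the JNK/p38-selective class from 14.7% to 13.4%. The 9 members together had 64.8 ± 1.40 FPKM in control and 71.8 ± 1.93 FPKM in EZH2 shRNA libraries. These sums are descriptions of chosen genes and carry no test.

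**Figure D3:**
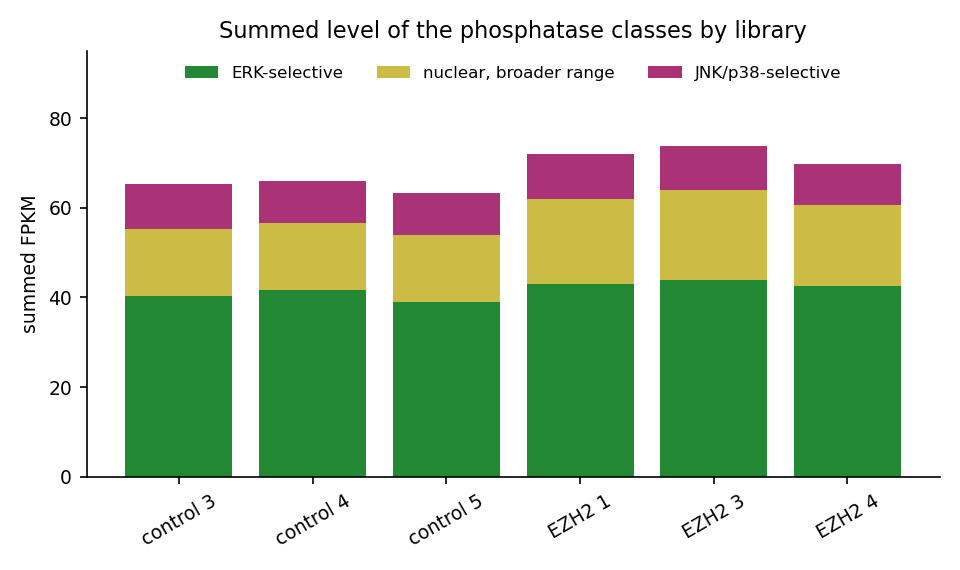
Summed FPKM of the ERK-selective, broader nuclear and JNK/p38-selective phosphatases in each library, stacked from 0. The JNK/p38-selective segment stays between 9.26 and 9.94 FPKM in all 6 libraries, and the broader nuclear segment is taller in every EZH2 shRNA library.

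The order of levels per length was DUSP6 (27.6 FPKM), DUSP2 (13.7), DUSP7 (9.87), DUSP10 (5.79), DUSP16 (3.58), DUSP5 (2.79), DUSP4 (1.11), DUSP1 (0.231) and DUSP8 (0.143) as control means. No neighbours in this order overlapped between libraries, although the lowest control value of DUSP1 (0.1516) and the highest of DUSP8 (0.1514) almost touched. In EZH2 shRNA cells the order began with DUSP6 (29.6 FPKM), DUSP2 (18.0), DUSP7 (10.0) and DUSP10 (7.01). DUSP5 (3.56) then stood above DUSP16 (2.601), reversing their order in control cells, and the libraries of these genes did not overlap in either group. DUSP1 (0.555) and DUSP4 (0.425) overlapped in EZH2 shRNA libraries, whereas in control libraries DUSP4 had been 4.78 times DUSP1. DUSP8 (0.041) remained last. DUSP6 alone made up 42.6% of the family total in control and 41.2% in EZH2 shRNA cells.

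**Figure D4:**
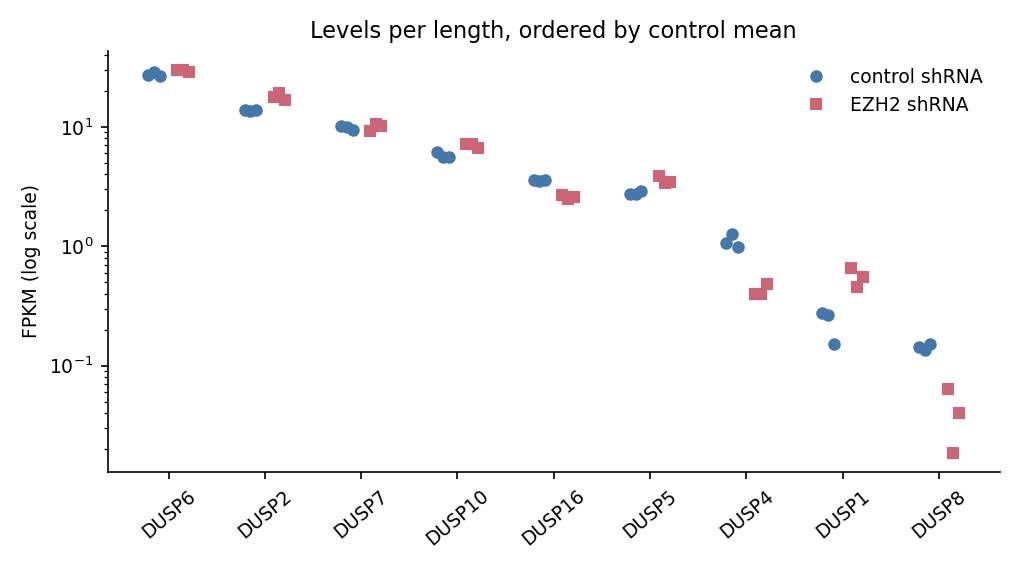
FPKM of each phosphatase gene in each library on a log axis, ordered by the control mean; circles are control and squares EZH2 shRNA libraries. The family spans from 27.6 FPKM for DUSP6 to 0.143 FPKM for DUSP8 in control cells, and DUSP4 drops to the level of DUSP1 in EZH2 shRNA cells.

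Genes of some chromosomes moved together in these libraries, so each member was set beside its surroundings. The median log2 fold change of well expressed genes was -0.30 on chromosome 2 and -0.27 on chromosome 11, and between -0.04 and 0.04 on the other chromosomes that carry members. DUSP2, on chromosome 2, rose although the 20 nearest expressed genes on each side had a median of -0.29, and with this median removed its log2 fold change was 0.69 (edgeR adjusted p = 5.54e-08). DUSP8, on chromosome 11, had neighbours at -0.20 and was at -1.595 after their median was removed (adjusted p = 0.00218). The neighbours of DUSP5 were at -0.18, and DUSP5 was then at 0.54 (adjusted p = 0.000117). The neighbours of DUSP4 were at 0.05 and those of DUSP1 at -0.004, and the refitted changes were -1.415 for DUSP4 and 1.26 for DUSP1. Removing the neighbours' median ended no member's call.

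Some members overlap annotated genes on the other strand. DUSP6 overlaps AC024909.1, with 11 counts over the control and 18 over the EZH2 shRNA libraries, DUSP16 overlaps AC007619.1 with 4 and 4, and DUSP8 overlaps KRTAP5-AS1 with 3 and 0. AC022217.3, which spans DUSP1, had 0 counts in all. How reads were counted by strand is not known here, so these counts do not show how reads in the shared spans were assigned, and their part in the results was not tested.

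Genes whose profile over the 6 libraries was nearest to DUSP1, by root mean square difference of log2 CPM from the control mean among 13419 genes, were KRT8 (0.0827), AZIN2 (0.148) and UBXN10-AS1 (0.149). KRT8, a keratin, went from 1.07 to 2.69 CPM. Nearest to DUSP8 were MS4A7 (0.292), DOCK10 (0.32) and the interferon-stimulated gene ISG15 (0.357), which went from 28.1 to 8.99 CPM.

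Other phosphatases were examined beside the family. Of 10 measured atypical dual-specificity phosphatases, which lack the kinase-binding domain of the family above, 2 rose and 3 fell, or 50% called beside 46.7% of all genes. DUSP23 rose from 8.82 to 17.5 CPM (log2 fold change 0.98) and DUSP22, an activator of JNK signalling, by 0.33, while DUSP28 and DUSP11, both on chromosome 2, were at -0.63 and -0.38. DUSP11 lost its call once the neighbours' median was removed (-0.135, edgeR adjusted p = 0.114), whereas DUSP28 was then at -0.35 and kept its call. Of 4 measured phosphatases of other families that act on MAP kinases, only PPM1B, on chromosome 2, changed (-0.71). With the neighbours' median removed PPM1B was at -0.435 and kept its call. PTPN7, the tyrosine phosphatase of blood cells that binds ERK and p38, was at 0.05 (edgeR adjusted p = 0.394).

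The mRNAs of some substrates of the phosphatases also differed between the groups. Of 10 measured MAP kinases, 3 rose and 3 fell. MAPK3, which encodes an ERK, averaged 28.0 CPM in control and 23.0 CPM in EZH2 shRNA libraries (-0.29 on the log2 scale with an SE of 0.06, edgeR adjusted p = 0.000493). The p38 family genes MAPK11 and MAPK12 had log2 fold changes of 1.14 and 0.26 and MAPK13 of 0.65, all called higher, while MAPK14, also a p38 gene, fell from 96.4 to 86.7 CPM (-0.15, edgeR adjusted p = 0.00777). The JNK genes MAPK8 (-0.05) and MAPK9 (0.05) did not pass the test.

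One level up, 3 of 6 measured MAP2 kinases rose and 0 fell: MAP2K3, a p38 activator, at 0.31, MAP2K4, which activates JNK and p38, at 0.20, and MAP2K2, an ERK activator, at 0.13. The call of MAP2K4 ended in 9 of 18 alternatives and that of MAP2K2 ended or turned in 6. Of 16 MAP3 kinases 2 rose and 5 fell. MAP3K5, which activates the JNK and p38 branches under oxidative stress, fell from 44.1 to 23.9 CPM (-0.88), and MAP3K2 and MAP3K11 were at -0.67 and -0.34, whereas MAP3K10 rose by 0.67. MAP3K11, on chromosome 11, was at -0.02 with the neighbours' median removed (edgeR adjusted p = 0.717). MAP3K2, on chromosome 2, was then at -0.38, MAP3K5 at -0.78 and MAP3K10 at 0.59, and these kept their calls.

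Downstream, 2 of 11 JNK and p38 effectors rose and 4 fell. The kinase gene RPS6KA5 rose by 0.61 and MKNK2 by 0.31. ATF2, a transcription factor phosphorylated by JNK and p38, fell from 60.5 to 34.2 CPM (-0.83), and RPS6KA4 fell by 0.68 on the log2 scale. With the neighbours' median removed, ATF2, on chromosome 2, was at -0.43 and RPS6KA4, on chromosome 11, at -0.48. RPS6KA5 was then at 0.58 and MKNK2 at 0.13, and all of these kept their calls. Of 7 measured scaffolds 2 rose and 2 fell, with ARRB1 at 0.28 and MAPK8IP2 at 0.89 against KSR1 at -0.21 and MAPK8IP1 at -0.63. The calls of KSR1, MAPK8IP1 and MAPK8IP2 ended in 8, 12 and 5 alternatives. Among 6 regulators of mRNAs with AU-rich elements, a class to which DUSP1 mRNA belongs, 2 rose and 0 fell. ZFP36L1 averaged 3.45 CPM in control and 10.1 CPM in EZH2 shRNA libraries (1.56 on the log2 scale with an SE of 0.12, edgeR adjusted p = 3.64e-08) and ZFP36, which promotes decay of such mRNAs, rose by 0.30. Beside the 46.7% of all genes, the share of measured genes called was 60% for the MAP kinases, 50% for the MAP2 kinases, 43.8% for the MAP3 kinases, 54.5% for the effectors, 57.1% for the scaffolds, 33.3% for the AU-rich element regulators and 25% for the phosphatases of other families.

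**Figure D5:**
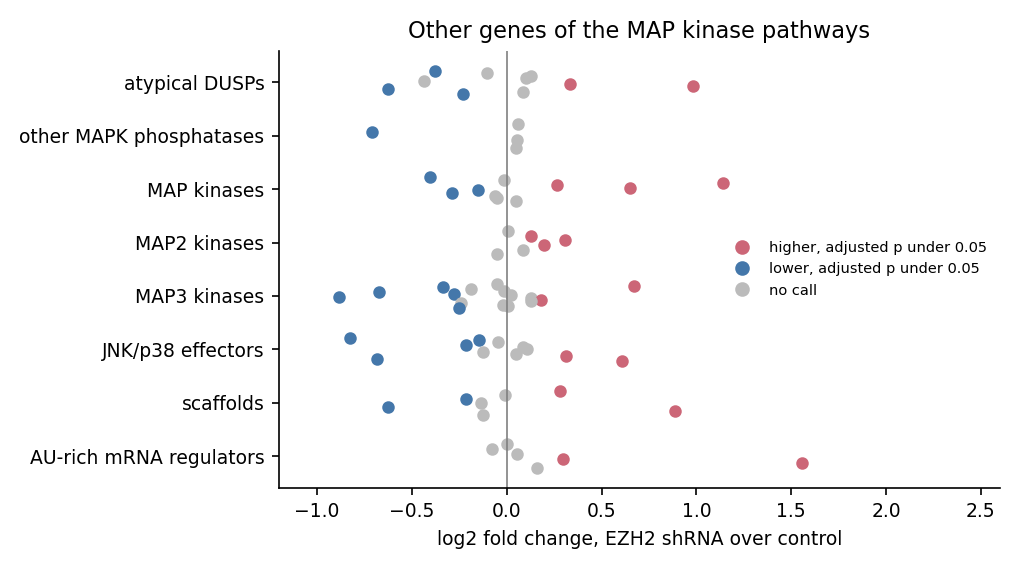
Log2 fold change, EZH2 shRNA over control, of each measured gene in 8 lists of the MAP kinase pathways; red points were called higher, blue points lower and grey points were not called. Most lists hold calls on both sides of 0, and ZFP36L1 at 1.56 and MAPK11 at 1.14 lie furthest to the right.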

How the data were processed

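Polyadenylated RNA of 6 HL-60 libraries was sequenced as single reads of 50 bases from a stranded kit, per the labels' protocols. The authors deposited raw counts (whole reads per gene, not normalized) and FPKM values. GRCh38, DESeq2 1.24.0 (under R 3.6.1), the aligner STAR 2.5.2b and Picard 2.18.24 are listed, per the submitters' processing notes. Which program counted the reads, with which annotation and strand setting, is not given in the sources used here. The deposited FPKM are the same counts rescaled (all 22778 genes checked within a tolerance of 0.001) and served only to compare genes per length. Groups came from the sample titles. Computed here were CPM with TMM factors and edgeR's quasi-likelihood test (version 4.0.16, R 4.3.3, robust, group as the only term) on 16859 genes that passed filterByExpr, with Benjamini-Hochberg adjustment over all of them and a threshold of 0.05. Each SE is the fold change divided by the root of its F statistic, and intervals of single genes are not adjusted for multiple tests. A floor of 3 counts, the limit a count of 0 allows, was 0.0353 to 0.0759 CPM per library. Log2 CPM used a prior count of 2, limma 3.58.1 was used for FPKM and DESeq2 1.42.0 as an alternative tool.

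The members and gene lists were chosen with earlier results of these data known. Named were all members and EZH2, up to 4 called genes of smallest p per list, and for the called members with the largest rise and fall the 3 genes of nearest profile (mean of at least 1 CPM). For 1 gene chosen by the rule no value is reported here. Values for MAPK13, MAPK14 and uncalled genes were chosen after they were seen. Chromosome and neighbour medians were taken over genes whose mean log2 CPM exceeded 2, with 20 neighbours on each side. On counts simulated for this comparison, 16659 of 16859 genes were left unchanged, and the test called 20 of these. It called 79 of 100 genes changed by 1 on the log2 scale and 67 of 100 changed by 0.5. In the data 46.7% of tested genes were called, and whether these rates carry over to such data was not tested. The labels name no molecular identifiers, so reads may be copies of a molecule, and intervals and floors cover counting error only.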

Additional observations from a re-analysis of the deposited data

How the results depend on the processing

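Across 18 alternatives (scaling, tool, filter, FPKM, title-number block, chromosome or neighbour median removed, and each library left out) the calls and directions of DUSP2, DUSP4, DUSP5, DUSP10 and DUSP16 did not change, nor did those of DUSP1 and DUSP8 in the 17 in which they were tested. The filter of 1 CPM in 3 libraries left out DUSP1 and DUSP8. DUSP6 lost its call in 13 alternatives and that filter removed DUSP1, so members called higher numbered 4 or 5. Members called lower numbered 2 with that filter and 3 in every other alternative. The difference between the ERK-selective and JNK/p38-selective medians was 0.195 with the filter of 1 CPM in 3 libraries, which drops DUSP8, and 0.234 on log2 of FPKM + 1, filtered or not, a scale that shrinks changes of low genes. On that scale DUSP4 was at -0.56, DUSP1 at 0.34 and DUSP8 at -0.14. DUSP7, which had no call, ranged from -0.019 to 0.068 with single libraries left out and was at -0.001 without control library 5. MAP2K2 turned to -0.015 with the neighbour median removed. The cause was not tested for these. With the title number as a replicate block, 7721 genes passed, 4 members rose and 3 fell, and the class difference was 0.555. Only numbers 3 and 4 occur in both groups. Control library 5 and EZH2 library 1 therefore add nothing to the group difference in this fit. The block ended the calls of DUSP6, MAP2K4 and MAPK8IP1 and of no other gene followed through the alternatives. MAPK13, MAPK14, DUSP5P1 and the genes of nearest profile other than KRT8 were not followed. Libraries of the same number correlated weakly in their deviations from group means (0.0359 for number 3, the highest of all pairings, and 0.0122 for number 4). Libraries of unlike number were at -0.030 to 0.022. With 3 libraries per group, such values cannot decide whether the numbers mark pairs. The labels do not say that they do, so the main fit does not take them as pairs. Depth limits DUSP1 and DUSP8, with 5 to 95 counts per library.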

Other observations

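The pseudogene DUSP5P1 on chromosome 1 was lower in EZH2 shRNA cells (log2 fold change -1.32, edgeR adjusted p = 0.000181; 179 counts over the control and 101 over the EZH2 shRNA libraries), while its parent DUSP5 was higher. It was picked out after its values were seen.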
